A study of Mus musculus with 28 samples.

Results

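Ribosome biogenesis and nucleolar genes encode the proteins that make ribosomal RNA, modify it and fit it into the subunits. The 40 genes described here are listed by name, with no threshold on a measured value, as proteins of the nucleolus and of the RNA polymerase I machinery. All 40 were found among the 35267 genes of the bulk RNA table on c-Kit+ cells, the 35429 genes of the bulk RNA table on cell lines, and the 9448 and 11662 genes listed for single cells. They fall into 6 roles: 3 box C/D and 4 box H/ACA small nucleolar ribonucleoprotein (snoRNP) proteins, 4 nucleolar phosphoproteins and chaperones, 5 RNA polymerase I subunits and nucleolar partners, 9 small subunit and 15 large subunit assembly factors.

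RNA polymerase I copies the ribosomal DNA repeats into one long precursor in the nucleolus. Box C/D particles guide methylation of its riboses and box H/ACA particles guide pseudouridylation, while assembly factors cut and fold it around ribosomal proteins into a small and a large subunit. Dividing blood progenitors make many ribosomes, mature granulocytes make few, and MYC, a transcription factor that binds the E-box CACGTG, is a known activator of many of these genes.

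All cells were mouse C57Bl/6. Bulk RNA came from c-Kit+ bone marrow cells, which are stem and progenitor cells, either fresh and carrying no vector (2 libraries), transduced with empty retrovirus and kept 4 days in cytokine medium, called differentiated (2 libraries), or transduced with retroviral Ty1-tagged MOZ-TIF2, a leukaemia fusion protein, and kept 4 days in the same way (2 libraries), the transduced cells being sorted on GFP. Bulk RNA also came from lines made from c-Kit+ cells by retroviral HOXA9 alone or by EYA1 with HOXA9 and replated 4 times in methylcellulose, each kept 72 h in 5 µM benzarone, which inhibits EYA phosphatase activity, or in DMSO alone (3 libraries each). Single serially replated MOZ-TIF2 cells were read after 1 and 5 days in DMSO and after 1, 3 and 5 days in 5 µM benzarone (1 sample per condition), and Ty1 chromatin immunoprecipitation was read in 2 samples. Every transduced group carries its transgene on a retrovirus, and the labels do not say whether libraries of a group come from separate cultures or animals, so the p-values measure only the spread between these libraries.

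The bulk libraries held 12397486 to 34463851 counts in the c-Kit table and 26340517 to 34606046 in the line table. The labelled cell types were compared with marker genes. The differentiated libraries held 58683 and 87178 CPM (counts scaled to the size of the library) of 12 mast cell and basophil markers, against 50.8 to 396 in the other c-Kit table libraries, and 38.7 and 259 CPM of 7 granulocyte progenitor markers, against 6749.5 to 15816. Fresh libraries held 22716 and 20855 CPM of late neutrophil markers, beside 1042 and 5421 in MOZ-TIF2 replicates 1 and 2. Those 2 MOZ-TIF2 libraries stood apart for the genes described here: 39 of 40 were higher in replicate 1, with Rrp1b the exception. Mast cell Tpsab1 was at 0 in both fresh libraries and MOZ-TIF2 replicate 1. In the lines, benzarone-treated EYA1+HOXA9 replicate 1 was below replicates 2 and 3 for all 40, and HOXA9 replicate 3 was below replicate 1 for 40 of 40 in DMSO and 36 of 40 in benzarone. Late neutrophil markers in HOXA9 replicates 1 to 3 summed to 1588, 759 and 2631 CPM in DMSO and 3078, 855 and 3166 in benzarone, against 86.0 to 285 in the EYA1+HOXA9 libraries, and 5 of 8 were called lower in EYA1+HOXA9 against HOXA9 cells in DMSO and 7 of 8 in benzarone. Granulocyte progenitor markers were called lower for 4 of 7 in DMSO and 6 of 7 in benzarone, with sums of 5632 to 8586 CPM in the EYA1+HOXA9 libraries and 12941 to 16606 in the HOXA9 libraries. Of 10 monocyte and macrophage markers tested, 3 were called higher and 2 lower in DMSO, and 5 higher and 2 lower in benzarone. The part of such cells in the differences between the lines was not tested.

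Ty1 peaks lay near a part of these genes, at a share not far above that of genes at or above the lowest member's level. Of 40 members, 20 (50%) had a Ty1 peak shared by both samples within 5 kb of either end of the gene, beside 25.1% of the 14517 genes with a position. Peaks inside a gene but further from both ends were not counted. Of the 7020 genes at or above the level of the lowest member in MOZ-TIF2 cells (19.98 CPM), 43.5% had such a peak. All 3 box C/D genes had one, as did Nhp2, Nop10 and Gar1 of box H/ACA, Ncl, Npm1 and Nolc1, Ddx21, 4 of 9 small subunit genes (Wdr43, Wdr75, Noc4l, Tsr1) and 6 of 15 large subunit genes (Bop1, Nip7, Rrs1, Rrp1b, Gnl3, Mrto4). The peak at Nop56 spans 800 bp (chr2:130274152-130274951, GRCm38) over the start of the gene (chr2:130274367-130279313), that at Ncl 1700 bp (chr1:86358552-86360251) over its start, and that at Gnl3 1200 bp (chr14:31018452-31019651) over its start. Dkc1 and Nop2 had no shared peak within 5 kb of either end. The labels give replicate 2 the antibody number of the acetyl-histone samples. The peaks of replicate 1 alone gave 22 members (55%), beside 27.7% of the genes with a position. The 20 members with a peak had a median difference of 1.32 (log2) between MOZ-TIF2 and differentiated cells and the 20 without one had 1.06. These medians were not taken over all genes, and a link between peaks and the difference was not tested.

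The promoters of 3 members under a shared peak are shown, together with that of Nop2, a methyltransferase of the large subunit RNA. Nop2 had an E-box and no shared peak near either end. The sequences are the 120 bases before the start in RefSeq (GRCm38.p6), 5′ to 3′ on the strand of the gene, with an E-box in capitals. This start is that of the promoter window. For Nop56 it lies inside the gene bounds given above, which begin at chr2:130274367, within the printed stretch.
Nop56, chr2:130274292-130274411, plus strand: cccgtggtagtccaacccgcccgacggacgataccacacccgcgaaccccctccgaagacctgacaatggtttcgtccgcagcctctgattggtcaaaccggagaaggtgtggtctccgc
Ncl, chr1:86359456-86359575, minus strand: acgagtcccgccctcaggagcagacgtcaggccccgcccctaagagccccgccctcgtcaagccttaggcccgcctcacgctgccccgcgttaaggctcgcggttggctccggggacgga
Gnl3, chr14:31019132-31019251, minus strand: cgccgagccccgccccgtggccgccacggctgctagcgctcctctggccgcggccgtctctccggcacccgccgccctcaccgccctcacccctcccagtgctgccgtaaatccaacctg
Nop2, chr6:125131763-125131882, plus strand: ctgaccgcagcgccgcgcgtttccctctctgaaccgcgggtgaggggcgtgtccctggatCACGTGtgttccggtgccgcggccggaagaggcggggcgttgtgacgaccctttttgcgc

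RefSeq promoter windows, 250 bases before to 50 after the start, were matched for 35 of 40 members. A gene can have more than 1 window, and the 35 members had 39. The E-box CACGTG reads the same on both strands. It was in a window of 6 of the 35 members (17.1%), of 11.4% of 10643 genes tested in the c-Kit table and of 8.09% of all 27025 genes. For Wdr43 the start of the window lies inside the gene bounds used for peaks, which begin at chr17:71616178. The 6 matches are shown with up to 10 bases on each side and the E-box in capitals, and their first bases lie at −60 (Nop2), +3 (Pes1), +18 (Wdr43), +25 (Tsr1), +38 (Utp20) and +41 (Mybbp1a) from the start of the window's transcript.
Mybbp1a, chr11:72441357-72441376, plus strand: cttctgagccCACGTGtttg
Nop2, chr6:125131813-125131838, plus strand: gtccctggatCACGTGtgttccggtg
Pes1, chr11:3963967-3963992, plus strand: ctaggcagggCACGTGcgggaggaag
Tsr1, chr11:74898094-74898119, plus strand: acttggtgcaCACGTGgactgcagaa
Utp20, chr10:88826765-88826787, minus strand: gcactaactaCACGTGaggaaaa
Wdr43, chr17:71616222-71616247, plus strand: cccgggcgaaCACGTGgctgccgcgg

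Against fresh c-Kit+ cells, differentiated cells held less RNA of most ribosome biogenesis genes, and no member was called higher. By edgeR's quasi-likelihood test with Benjamini-Hochberg adjustment over 15224 genes, 32 of 40 fell and 0 rose at an adjusted p under 0.05 (called), where 19.7% of all genes tested were called lower and 21.0% higher. The median member was 2.83-fold lower, and the log2 differences ran from −2.28 for Npm3 to −0.39 for Noc3l. Fresh libraries also held 7327 and 5499 CPM of 10 erythroid markers, against 70.7 and 73.1 in differentiated libraries, and 689 and 647 CPM of 8 B lymphoid markers, against 0.43 and 1.18. All 10 and all 8 were called lower in differentiated cells, as were 6 of 8 T and NK lymphoid markers, and the part of such cells in the result was not tested. In bulk RNA, fewer cells of a type and less RNA per cell cannot be told apart. Leaving out any 1 of these libraries left 1 library in a group, and fewer members and fewer of all genes were then called. The member median was −1.40 without fresh replicate 1 and −1.52 without fresh replicate 2. It was −1.29 without differentiated replicate 1 and −1.76 without differentiated replicate 2. Nop56 and Rrp1b were called lower under all 10 alternatives.

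MOZ-TIF2 cells, sorted and cultured like the differentiated cells, held more. Against differentiated cells, 23 of 40 rose and 0 fell, where 13.3% of all genes tested were called higher and 16.2% lower. The median difference was 1.25 (log2), which is 2.37-fold, from 0.14 for Polr1e to 2.29 for Rrp1b. Fewer members and fewer of all genes were called without differentiated replicate 1, differentiated replicate 2 or MOZ-TIF2 replicate 1, fits that leave 1 library in a group. The member medians there were 0.95, 1.52 and 0.72. Without MOZ-TIF2 replicate 2 the median was 1.54, and more members were called. Nop56, Npm3, Mybbp1a, Rrp12, Wdr12 and Rrp1b were called higher under all 10 alternatives. Both contrasts share the differentiated libraries, in which 10 of 12 mast cell and basophil markers were higher than in fresh cells and 11 of 12 higher than in MOZ-TIF2 cells. The part of those cells in the differences was not tested. Of 24 replication genes, 19 fell in differentiated against fresh cells and 6 rose in MOZ-TIF2 against differentiated cells.

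Against fresh cells, MOZ-TIF2 cells showed no called member. Neither direction had a call by edgeR's quasi-likelihood test (0 of 40, where 23.7% of all genes tested were called), 3 members were lower at an unadjusted p under 0.05, and DESeq2 called 2, Fbl (−1.02, adjusted p = 0.00955) and Nop10 (−0.90, adjusted p = 0.0238), both lower. The median was −0.25, from −1.001 for Fbl to 0.53 for Utp20, and 11 of 40 values were above 0. Without MOZ-TIF2 replicate 1, the higher of the 2 libraries, 3 were called lower (Nop10, Nop16 and Mrto4).

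**Figure D1:**
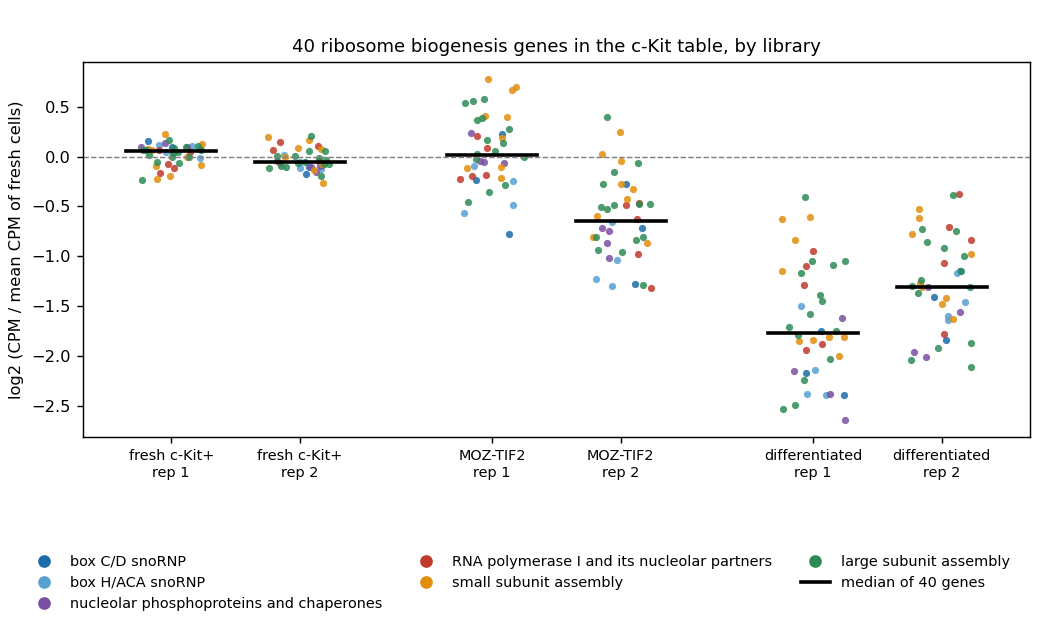
Level of each of the 40 genes in each library of the c-Kit table, as the log2 ratio to the mean of the fresh libraries (vertical axis) for fresh, MOZ-TIF2 and differentiated cells (2 libraries each); each point is 1 gene. Library medians were −1.77 and −1.30 in differentiated cells and 0.01 and −0.64 in MOZ-TIF2 replicates 1 and 2.

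The box C/D proteins form the methylating particles. Nop56, a scaffold protein, was at 249.8 and 217 CPM in fresh, 52.1 and 65.3 in differentiated and 272 and 193 in MOZ-TIF2 cells. The differentiated libraries lay below all others, and Nop56 differed by −1.99 ± 0.27 (adjusted p = 0.00381) from fresh and by 1.99 ± 0.27 (adjusted p = 0.00405) from MOZ-TIF2 cells in the direction MOZ-TIF2 minus differentiated. Nop58, its partner, differed by −1.81 ± 0.37 (adjusted p = 0.0131) and 1.36 ± 0.37 (adjusted p = 0.0383) in the same contrasts. Fbl, the methyltransferase, was at 348 and 275 CPM in fresh, 92.6 and 141 in differentiated and 182 and 129 in MOZ-TIF2 cells. The MOZ-TIF2 libraries overlapped the differentiated ones and lay below the fresh ones. Fbl fell in differentiated cells (−1.42 ± 0.31, adjusted p = 0.0159) and had no call between MOZ-TIF2 and differentiated cells (0.42 ± 0.31, adjusted p = 0.35) or fresh cells (−1.001 ± 0.31, adjusted p = 0.0629).

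The box H/ACA proteins form the pseudouridylating particles and, with the telomerase RNA, part of telomerase. All 4 fell in differentiated cells and 1 of 4, Dkc1, rose in MOZ-TIF2 against differentiated cells. Dkc1, the pseudouridine synthase, was at 194 and 199 CPM in fresh, 37.6 and 63.3 in differentiated and 184 and 125 in MOZ-TIF2 cells. It was lowest in both differentiated libraries, by −1.96 ± 0.33 (adjusted p = 0.00759) against fresh and with 1.61 ± 0.33 (adjusted p = 0.0157) for MOZ-TIF2 minus differentiated. Nop10, a small structural partner of Dkc1, was at 107 and 99.6 CPM in fresh, 36.5 and 45.9 in differentiated and 69.8 and 42.1 in MOZ-TIF2 cells, so MOZ-TIF2 replicate 2 lay between the differentiated libraries. Nhp2 and Gar1, its other partners, had MOZ-TIF2 minus differentiated differences of 1.16 ± 0.36 (adjusted p = 0.0544) and 1.12 ± 0.36 (adjusted p = 0.062), with groups that did not overlap and no call.

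The 4 nucleolar phosphoproteins and chaperones all fell in differentiated cells and all rose in MOZ-TIF2 against differentiated cells. Ncl (nucleolin), which binds nascent ribosomal RNA, was at 1736 and 1421 CPM in fresh, 514 and 638 in differentiated and 1862 and 961 in MOZ-TIF2 cells. Npm1 (nucleophosmin), a shuttling chaperone that is often mutated in acute myeloid leukaemia, was at 1931 and 1811 CPM in fresh, 421 and 638 in differentiated and 1796 and 1027 in MOZ-TIF2 cells. In MOZ-TIF2 replicate 1, Ncl lay above both fresh libraries and Npm1 just below them, while replicate 2 lay between the groups for both genes. MOZ-TIF2 minus differentiated was 1.29 ± 0.38 (adjusted p = 0.0484) and 1.41 ± 0.38 (adjusted p = 0.0358). Npm3, a nucleoplasmin relative, was at 157 and 137 CPM in fresh, 23.6 and 36.7 in differentiated and 143 and 87.9 in MOZ-TIF2 cells, with −2.28 ± 0.34 (adjusted p = 0.00514) in differentiated against fresh cells. Nolc1, a chaperone of snoRNPs, had −2.15 ± 0.37 (adjusted p = 0.0077) in that contrast.

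Of the RNA polymerase I subunits and partners, 3 of 5 fell in differentiated cells (Polr1a, Polr1b and Mybbp1a) and 1 of 5, Mybbp1a, rose in MOZ-TIF2 against differentiated cells. Mybbp1a, a nucleolar MYB-binding protein, was at 396 and 361 CPM in fresh, 98.8 and 111 in differentiated and 438 and 274 in MOZ-TIF2 cells. Its differentiated libraries lay apart from the rest, with 1.76 ± 0.29 (adjusted p = 0.00796) for MOZ-TIF2 minus differentiated. Polr1e, which encodes a subunit that helps initiation, was at 30.2 and 28.5 CPM in fresh, 13.8 and 22.5 in differentiated and 25.0 and 14.9 in MOZ-TIF2 cells. The MOZ-TIF2 and differentiated libraries of Polr1e overlapped, with 0.14 ± 0.36 (adjusted p = 0.81). Polr1a, the largest subunit, and Polr1b, the second largest, had 0.71 ± 0.24 (adjusted p = 0.0702) and 0.77 ± 0.44 (adjusted p = 0.24), and Ddx21, an RNA helicase, 0.59 ± 0.29 (adjusted p = 0.18).

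Of the small subunit factors, 6 of 9 fell in differentiated cells and 7 of 9 rose in MOZ-TIF2 against differentiated cells, all but Nop14 and Rrp9. Rrp12, which takes part in pre-ribosome export, was at 65.7 and 59.7 CPM in fresh, 17.9 and 20.4 in differentiated and 83.2 and 50.1 in MOZ-TIF2 cells, with 1.80 ± 0.28 (adjusted p = 0.00709) for MOZ-TIF2 minus differentiated. Utp20, a large scaffold of the small subunit processome, was at 47.7 and 64.2 CPM in fresh, 36.8 and 28.4 in differentiated and 95.6 and 66.3 in MOZ-TIF2 cells. Both MOZ-TIF2 libraries of Utp20 lay above both fresh ones, with no call (0.53 ± 0.28, adjusted p = 0.21). Heatr1, another processome scaffold, and Tsr1, a late factor, rose in MOZ-TIF2 cells (1.07 ± 0.30, adjusted p = 0.0396, and 1.21 ± 0.31, adjusted p = 0.0329) and had no call between differentiated and fresh cells (−0.67 ± 0.29, adjusted p = 0.11, and −0.85 ± 0.31, adjusted p = 0.0716). Nop14, Rrp9, Wdr43, Wdr75, Rrp12 and Noc4l made up the 6 that fell in differentiated cells.

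Of the large subunit factors, 12 of 15 fell in differentiated cells, all but Bop1, Nip7 and Noc3l, and 8 of 15 rose in MOZ-TIF2 against differentiated cells. Rrp1b, a nucleolar protein that binds protein phosphatase 1, was at 51.6 and 56.0 CPM in fresh, 11.4 and 14.3 in differentiated and 54.9 and 70.8 in MOZ-TIF2 cells, with 2.29 ± 0.24 (adjusted p = 0.00166) for MOZ-TIF2 minus differentiated and −2.07 ± 0.23 (adjusted p = 0.00235) for differentiated minus fresh. It was the member whose MOZ-TIF2 replicate 2 exceeded replicate 1. Pes1, Bop1 and Wdr12 form one complex of large subunit maturation, and they did not have the same calls. Wdr12 was at 82.2 and 88.9 CPM in fresh, 24.8 and 33.1 in differentiated and 126 and 81.7 in MOZ-TIF2 cells and rose (1.84 ± 0.28, adjusted p = 0.00657), whereas Bop1 and Pes1 had 0.96 ± 0.33 (adjusted p = 0.0763) and 0.74 ± 0.26 (adjusted p = 0.0765). Gnl3 (nucleostemin), a GTPase high in stem cells, rose by 1.90 ± 0.36 (adjusted p = 0.0126). Mrto4, which holds the place of the stalk protein, was at 103 and 94.1 CPM in fresh, 17.6 and 24.1 in differentiated and 77.2 and 40.5 in MOZ-TIF2 cells, so both MOZ-TIF2 libraries lay between the other groups. Noc3l, at 28.0 and 37.9 CPM in fresh, 24.9 and 25.3 in differentiated and 49.3 and 23.2 in MOZ-TIF2 cells, had overlapping MOZ-TIF2 and differentiated libraries and no call in the 3 contrasts.

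**Figure D2:**
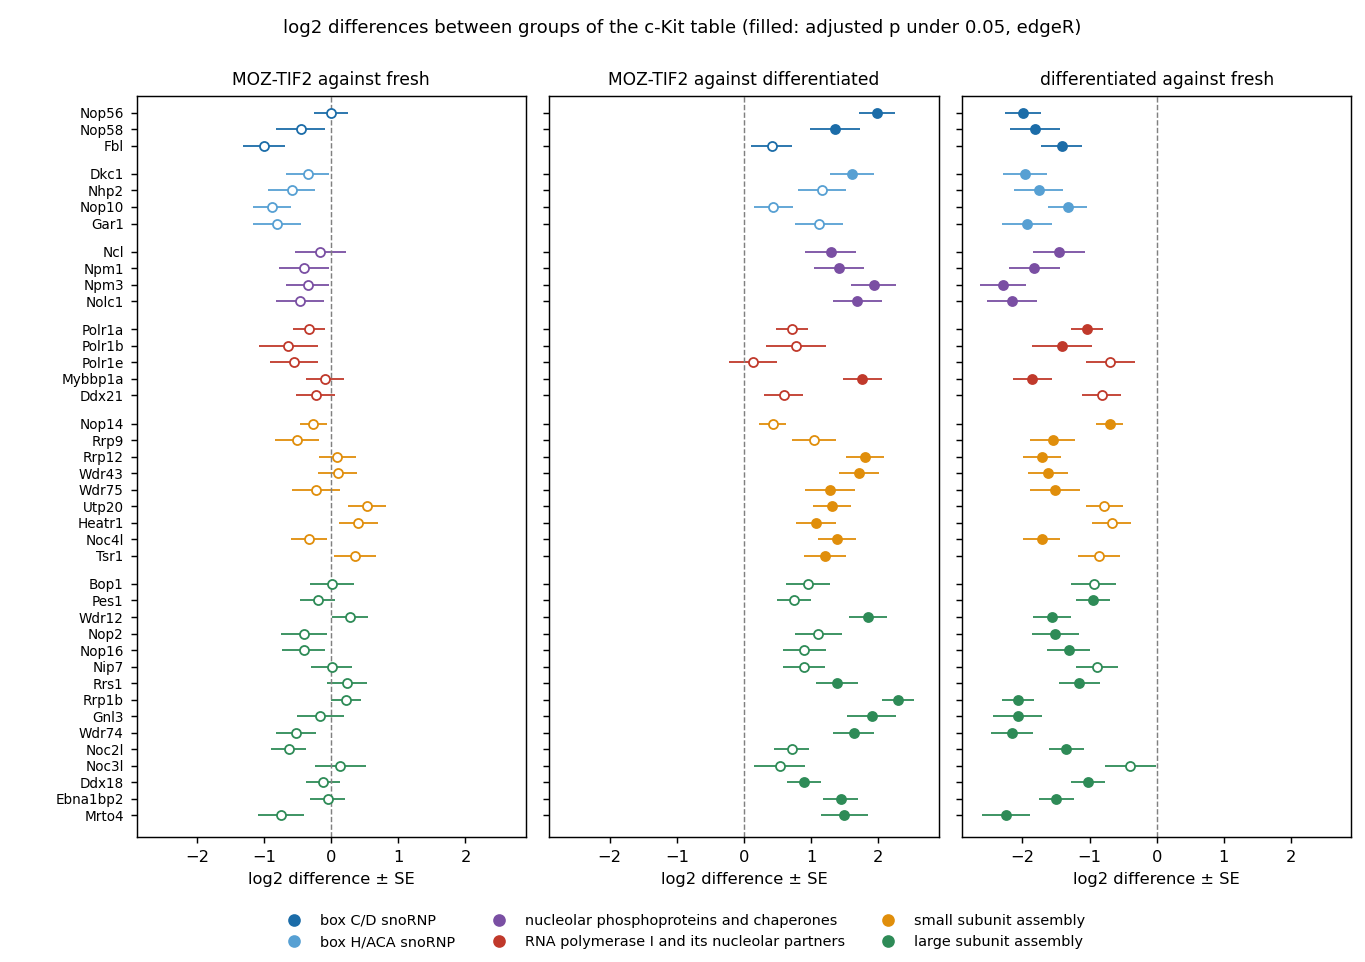
Difference of each of the 40 genes (log2, horizontal axis) in MOZ-TIF2 minus fresh, MOZ-TIF2 minus differentiated and differentiated minus fresh cells, ordered and coloured by role, with bars of 1 standard error of the edgeR fit and filled points for called genes. The differences span −1.001 to 0.53 in the first panel, 0.14 to 2.29 in the second and −2.28 to −0.39 in the third, and each pair of panels shares a group of libraries.

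Other genes of the pathway were counted beside all genes tested. Of these, 13.3% were called higher and 16.2% lower in MOZ-TIF2 against differentiated cells. In differentiated against fresh cells, 21.0% were called higher and 19.7% lower. Of 44 other small subunit factors, 17 rose and 0 fell in MOZ-TIF2 against differentiated cells, and 0 rose and 22 fell in differentiated against fresh cells. Of 42 other large subunit factors the counts were 17 and 0, then 0 and 26. Of 17 other RNA polymerase I genes they were 2 and 0, then 0 and 5, and of 13 exosome genes 4 and 0, then 0 and 8. Mphosph10, of the U3 particle, differed by 2.80 in MOZ-TIF2 against differentiated cells (adjusted p = 0.00111), and its difference between MOZ-TIF2 and fresh cells was also called (1.24 ± 0.24, adjusted p = 0.0187). Nle1, of large subunit assembly, had 1.79 ± 0.27 (adjusted p = 0.00595) and, in differentiated minus fresh, −2.27 ± 0.27 (adjusted p = 0.0028). Imp3 and Nol7 were called lower in MOZ-TIF2 against fresh cells (−0.97 ± 0.20, adjusted p = 0.0205, and −0.90 ± 0.19, adjusted p = 0.0239).

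Myc is no member but encodes the factor that binds the E-box. Its level was 248 and 205 CPM in fresh, 46.9 and 112 in differentiated and 191 and 288 in MOZ-TIF2 cells, so the differentiated libraries were the lowest. Myc fell in differentiated against fresh cells (−1.51 ± 0.45, adjusted p = 0.0391) and rose in MOZ-TIF2 against differentiated cells (1.59 ± 0.45, adjusted p = 0.0427).

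In the lines in DMSO, the share of these genes called lower in EYA1+HOXA9 than in HOXA9 cells was near that of all genes. By edgeR's quasi-likelihood test over 13375 genes, 5 of 40 were lower and 0 higher, where 10.8% of all genes tested were called lower and 12.1% higher, and the median was −0.27. Nhp2 was at 131, 101 and 95.4 CPM in EYA1+HOXA9 and 212, 217 and 138 in HOXA9 libraries (−0.79 ± 0.24, adjusted p = 0.0314). Bop1 was at 104, 74.2 and 68.2 CPM in EYA1+HOXA9 and 137, 145 and 105 in HOXA9 libraries (−0.65 ± 0.18, adjusted p = 0.0196). For both genes each EYA1+HOXA9 library lay below each HOXA9 library. Polr1e, Noc4l and Ebna1bp2, a large subunit factor, were the others (−0.68, −0.52 and −0.55). Of the 40 differences, 5 were above 0, none of them called. Dkc1 was at 291 to 350 CPM in EYA1+HOXA9 and 233 to 285 in HOXA9 libraries, and Polr1b at 58.4 to 60.1 and 36.6 to 55.9. For these genes each EYA1+HOXA9 library lay above each HOXA9 library. The count of called members rested on single libraries: it was 0 without EYA1+HOXA9 DMSO replicate 2 or 3 or HOXA9 DMSO replicate 1 or 2, and 12 without HOXA9 DMSO replicate 3. Calls over all genes were 3061 in the main fit and 1997, 1735, 2000, 1857 and 3271 in these fits, in that order. The member medians were −0.25, −0.25, −0.18, −0.17 and −0.42.

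In benzarone, 12 of 40 were called lower in EYA1+HOXA9 than in HOXA9 cells and 0 higher, where 10.1% of all genes tested were called lower and 15.2% higher, and all 40 differences were below 0, with a median of −0.45. Nop56 was at 113, 132 and 189.8 CPM in EYA1+HOXA9 and 316, 251 and 196 in HOXA9 cells (−0.81 ± 0.22, adjusted p = 0.0166). Bop1 was at 66.1, 75.3 and 86.1 CPM in EYA1+HOXA9 and 133, 139 and 112 in HOXA9 cells (−0.75 ± 0.18, adjusted p = 0.00787). Rrs1, which helps bring the 5S particle into the large subunit, was at 48.8, 61.3 and 73.8 CPM in EYA1+HOXA9 and 91.3, 94.1 and 86.3 in HOXA9 cells (−0.56 ± 0.14, adjusted p = 0.00942). The groups did not overlap for these 3, and Bop1 and Rrs1 were called under all 12 alternatives. Npm3 (−0.72), Noc4l (−0.60), Wdr75 (−0.66), Nhp2 (−0.74), Polr1e (−0.71), Rrp9 (−0.64), Tsr1 (−0.33), Nip7 (−0.63) and Mrto4 (−0.70) made up the rest. The count was 2 without EYA1+HOXA9 benzarone replicate 1 or 2, 3 without HOXA9 benzarone replicate 1 or 2, and 23 without EYA1+HOXA9 benzarone replicate 3. Calls over all genes were 3382 in the main fit and 2211, 2444, 2942, 2585 and 3596 in these fits, in that order. The member medians were −0.34, −0.45, −0.40, −0.36 and −0.59. With a replicate block the counts were 5 in benzarone and 4 in DMSO, and whether the media differ in this contrast is what the interaction, given further on, tests.

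Within EYA1+HOXA9 cells, 7 of 40 were lower and 0 higher in benzarone than in DMSO, a share not far from the background, where 12.4% of all genes tested were called lower and 17.0% higher, and the median was −0.23. Dkc1 was at 350.3, 291 and 320.2 CPM in DMSO and 147, 187 and 234 in benzarone. The groups were apart and Dkc1 fell by 0.76 ± 0.16 on the log2 scale (adjusted p = 0.00458, called under all 12 alternatives). Nop56 was at 249.9, 239 and 259 CPM in DMSO and 113, 132 and 189.8 in benzarone (−0.78 ± 0.22, adjusted p = 0.018). Gar1 was at 71.3, 63.5 and 65.0 CPM in DMSO and 38.2, 46.9 and 58.8 in benzarone (−0.47 ± 0.14, adjusted p = 0.0235). Polr1b was at 58.4, 60.1 and 58.8 CPM in DMSO and 35.1, 38.3 and 48.7 in benzarone (−0.54 ± 0.18, adjusted p = 0.0367). In these 4 genes every benzarone library lay below every DMSO library. Tsr1 (−0.35), Wdr12 (−0.50) and Rrs1 (−0.40) were the other 3. The 3 benzarone libraries were unequal, and were not ordered by design: median levels relative to the mean of HOXA9 DMSO were −0.84, −0.51 and −0.24 in replicates 1 to 3 (log2), and the granulocyte progenitor marker sum was 5632, 7028 and 7860 CPM in the same libraries, against 8294 to 8586 in DMSO, with 1 of 7 of these markers called higher and 4 lower in benzarone. Of 10 monocyte and macrophage markers tested, 6 were called higher and 0 lower, with sums of 6112, 5248 and 5040.5 CPM in benzarone and 6458, 5430 and 5529.6 in DMSO. The part of these marker differences in the result was not tested. The count was 1 without benzarone replicate 1 or 2 or DMSO replicate 3, 2 without DMSO replicate 1, 3 without DMSO replicate 2 and 3 with a replicate block. Calls over all genes were 3933 in the main fit and 2710, 2807, 2353, 3923, 2914 and 4046 in these fits, in that order. The member medians were −0.11, −0.22, −0.27, −0.23, −0.25 and −0.21.

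In HOXA9 cells no member was called. The count was 0 of 40 in edgeR's quasi-likelihood test, 0 at an unadjusted p under 0.05 and 0 in DESeq2, and edgeR called 0% of the genes tested (0 of 13375). The median was −0.05, and its sign rested on single libraries. It was 0.08 without HOXA9 benzarone replicate 3, 0.03 without HOXA9 DMSO replicate 1, 0.04 without HOXA9 DMSO replicate 2 and −0.18 without HOXA9 DMSO replicate 3. Dkc1 was at 285, 282 and 233 CPM in DMSO and 280.2, 266 and 224 in benzarone (−0.05 ± 0.16), and Nop56 at 291, 284 and 195 CPM in DMSO and 316, 251 and 196 in benzarone (−0.01 ± 0.22). For both genes the groups overlapped, and replicate 3 was the lowest library in either medium. That the lines differed in their response was tested as an interaction. It called 0 of 40, where 7.54% of all genes tested were called, with 3 lower at an unadjusted p under 0.05: Dkc1 (−0.71 ± 0.23, adjusted p = 0.0825), Nop56 (−0.77 ± 0.31, adjusted p = 0.15) and Tsr1 (−0.36 ± 0.16, adjusted p = 0.20). DESeq2 called 1, Dkc1 (−0.72, adjusted p = 0.0199), and Dkc1 was also called without EYA1+HOXA9 benzarone replicate 3 (−0.88, adjusted p = 0.0278).

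**Figure D3:**
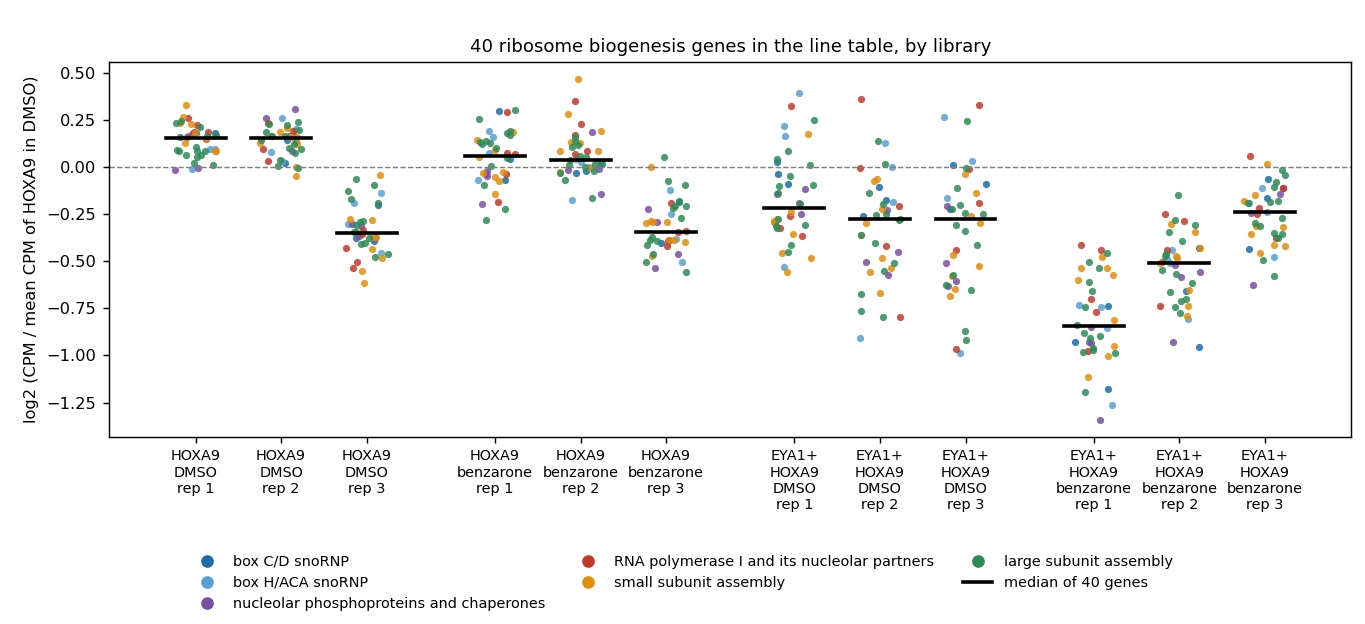
Level of each of the 40 genes in each library of the line table, as the log2 ratio to the mean of HOXA9 in DMSO (vertical axis), for 4 groups of 3 libraries; each point is 1 gene. Library medians were −0.22 to −0.28 in EYA1+HOXA9 DMSO, −0.84 to −0.24 in EYA1+HOXA9 benzarone, −0.35 to 0.15 in HOXA9 DMSO and −0.34 to 0.06 in HOXA9 benzarone.

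Other pathway genes in the lines were counted beside 12.4% of all genes tested called lower and 17.0% higher in benzarone within EYA1+HOXA9. In benzarone against DMSO within EYA1+HOXA9, 1 rose and 3 fell of 44 other small subunit factors, 1 rose and 5 fell of 42 other large subunit factors, 0 rose and 4 fell of 17 other polymerase I genes, and 1 rose and 6 fell of 24 replication genes. Polr1g fell (−0.60 ± 0.13, adjusted p = 0.00372), as did Utp4 (−0.62 ± 0.14, adjusted p = 0.00687), whereas Bms1 rose (0.41 ± 0.14, adjusted p = 0.0403). In HOXA9 cells 0 of these genes were called. Myc was at 306, 402 and 449 CPM in EYA1+HOXA9 DMSO and 125, 162 and 204 in benzarone. All 3 benzarone libraries of Myc lay below all 3 DMSO ones (−1.24 ± 0.21, adjusted p = 0.00113). In DMSO, Myc was called higher in EYA1+HOXA9 than in HOXA9 cells (249.2, 193 and 276 CPM), where 5 of 40 member differences were above 0. That call was lost in 4 of 12 alternatives, and in benzarone Myc had no call between the lines. HOXA9 replicate 3 had the highest Myc level in either medium but was below replicate 1 for 40 and 36 of 40 members. EYA1+HOXA9 benzarone replicate 3 was highest for both Myc and the member median.

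In single MOZ-TIF2 cells, the members were about level after 1 day of benzarone and lower at 5 days. There was 1 sample for each condition, so no test was made, and intervals cover counting error only. The 5 conditions held 883 (DMSO) and 826 (benzarone) cells at day 1, 829 (benzarone) at day 3, and 1662 (DMSO) and 1496 (benzarone) at day 5, with median unique molecular identifiers (UMIs) per cell of 42565, 44761.5, 44743, 24575.5 and 19763. Both day 5 conditions are one deposited sample parted by hashtags, and the day 5 table was made apart from that of days 1 and 3. The days 1 and 3 table held 2535 barcodes, 3 of them repeated within it, and 9 were shared with the 3158 of day 5.

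On day 1, 0 of 40 genes were past 1.5-fold, where 1.80% of all genes were. Ratios of benzarone to DMSO ran from 0.838 for Noc2l to 1.17 for Polr1e. In benzarone from day 1 to day 3, again 0 were past 1.5-fold (5.76% of all genes were), and all 40 ratios were below 1, from 0.747 for Polr1e to 0.987 for Noc2l. The median was −0.25 (log2), where the median of all genes was −0.04. Npm1 went from 3013 to 2329 CPM, a ratio of 0.773 (95% interval 0.766 to 0.780), and Dkc1 from 96.9 to 80.0 CPM, a ratio of 0.825 (95% interval 0.786 to 0.867). The sample labels name no DMSO cells of day 3, so that the drug and the day cannot be told apart in this step.

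At day 5, 38 of 40 were lower in benzarone past 1.5-fold and 0 higher, where 27.6% of all genes were lower and 24.5% higher. The median was −1.40 (log2), where the median of all genes was −0.11, and with that shift taken out by median-of-ratios scaling 37 members were lower. Nop10 went from 719 to 202 CPM, the lowest ratio at 0.281 (95% interval 0.274 to 0.289). Npm1 went from 3145 to 964 CPM, a ratio of 0.306 (95% interval 0.303 to 0.310). Nop56 went from 315 to 100.2 CPM, a ratio of 0.318 (95% interval 0.306 to 0.331). Genes of 3 roles thus had similar ratios. Ncl had 0.291, Npm3 0.284, Dkc1 0.300, Gar1 0.299 and Polr1b 0.303. By role, the median was −1.60 for box C/D, −1.74 for both box H/ACA and the phosphoproteins, −1.22 for the polymerase genes, −1.26 for small subunit and −1.18 for large subunit factors. The 2 members not past 1.5-fold were Noc2l and Heatr1, with 0.675 (95% interval 0.624 to 0.730) and 0.851 (95% interval 0.686 to 1.05).

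**Figure D4:**
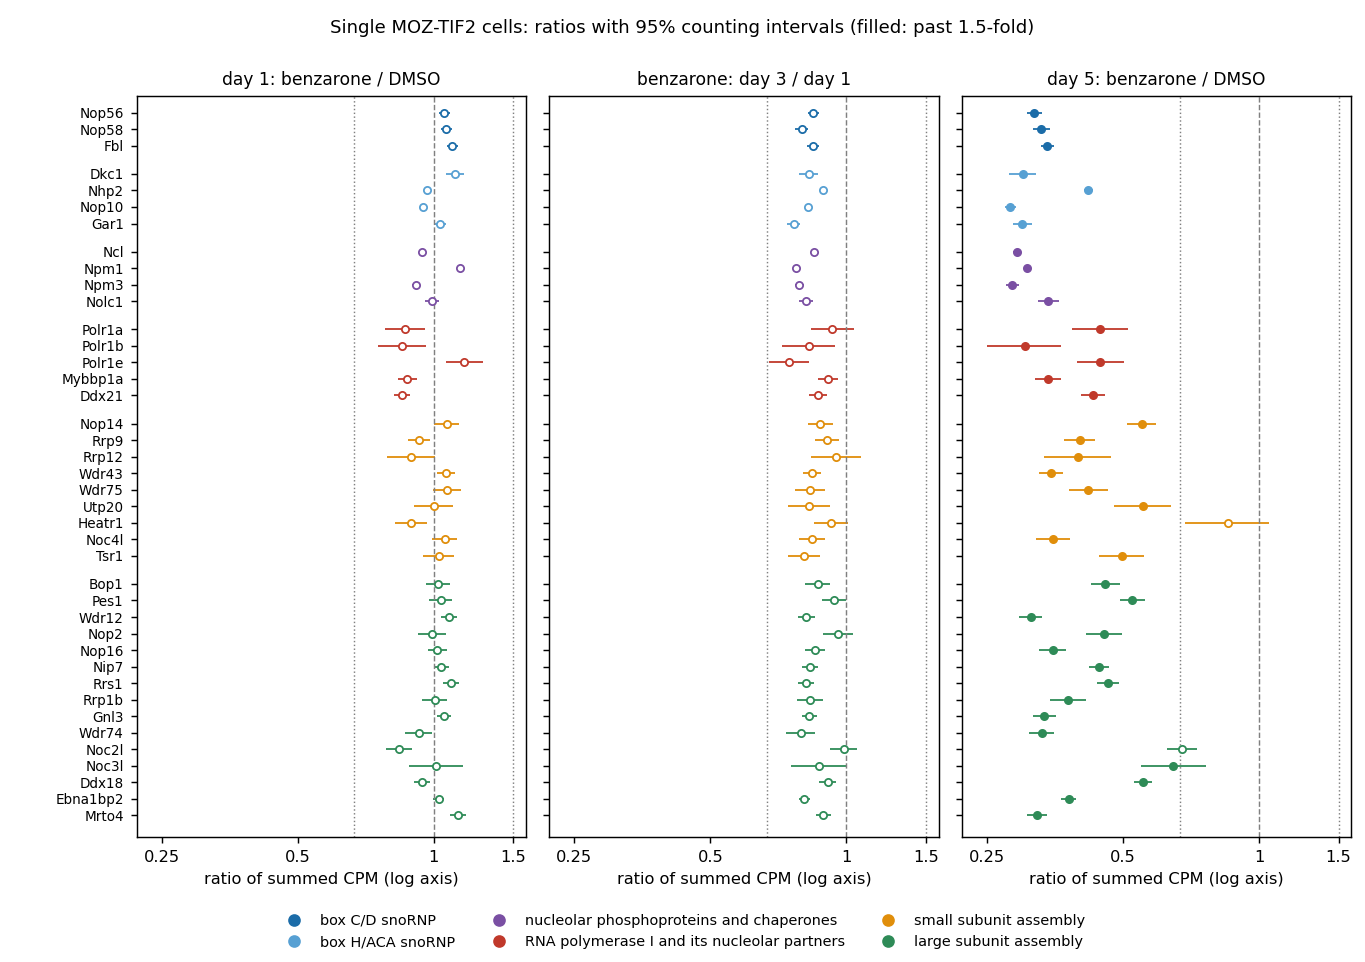
Ratio of summed CPM for each of the 40 genes in single MOZ-TIF2 cells (log axis), ordered by role, for benzarone against DMSO at day 1, benzarone day 3 against day 1, and benzarone against DMSO at day 5, with 95% counting intervals. Day 1 ratios run from 0.838 to 1.17, day 3 ratios from 0.747 to 0.987 and day 5 ratios from 0.281 to 0.851.

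Per cell, the 40 genes made up a median of 0.987% of the UMIs in DMSO and 1.01% in benzarone at day 1, 0.809% in benzarone at day 3, and 1.04% in DMSO and 0.277% in benzarone at day 5. Thinned to 10000 UMIs per cell, which left out 42 DMSO and 126 benzarone cells of day 5, the medians were 0.98%, 0.99%, 0.81%, 1.03% and 0.28%. Cells under a share of 0.5%, a range and not a cell type, made up 11.8% and 14.9% at day 1 (DMSO and benzarone), 30.3% at day 3, and 9.63% and 87.2% at day 5. Between 0.45% and 0.55% lay 30, 34, 53, 37 and 110 cells in the same order.

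**Figure D5:**
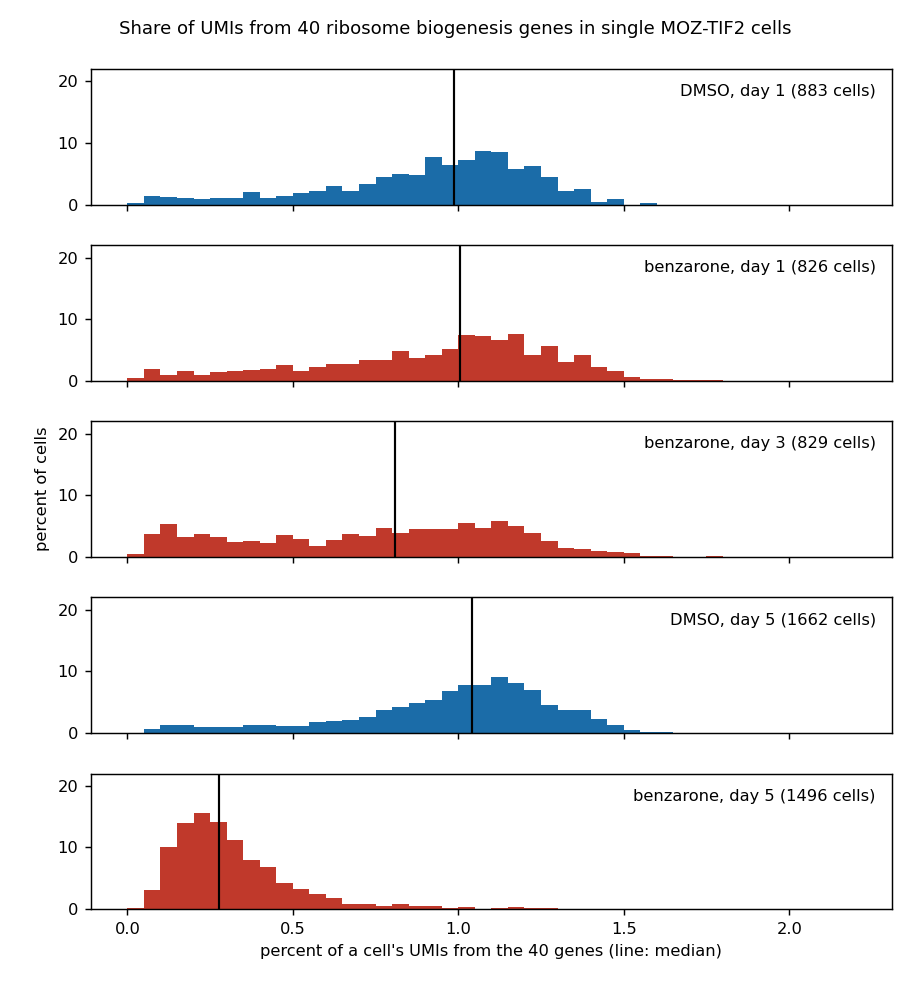
Share of each cell's UMIs that came from the 40 genes (horizontal axis, percent), as histograms of the percent of cells in the 5 conditions, with a line at each median. The medians are 0.987% and 1.01% at day 1, 0.809% at day 3, and 1.04% and 0.277% in DMSO and benzarone at day 5.

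Other genes moved with them at day 5. Summed late neutrophil markers were at 21486 CPM in benzarone and 10387 in DMSO, monocyte and macrophage markers at 2290 and 248, megakaryocyte markers at 3393 and 119, and granulocyte progenitor markers at 1666 and 10681. Mpo, a granule enzyme of granulocyte progenitors, went from 1889.8 to 88.0 CPM, Myc from 65.2 to 29.6 CPM (a ratio of 0.454, 95% interval 0.421 to 0.489), and the ribosomal protein genes Rps3 and Rplp0 had ratios of 0.689 and 0.633. The part of these cell type markers in the result was not tested. Of pathway genes with UMIs, 37 of 43 other small subunit factors, 32 of 42 other large subunit factors, 11 of 17 other polymerase I genes, 11 of 13 exosome genes and 23 of 24 replication genes were lower past 1.5-fold, and none of these was higher.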

How the data were processed

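The authors deposited raw estimated counts for bulk RNA. Salmon 0.13.0 is named, with no role, in the submitters' processing notes. For single cells the authors deposited UMI counts, and Cell Ranger 3.0.0 and hashtags are given in the submitters' processing notes. They list part of the genes, so CPM is over the listed genes. The deposited peaks are GRCm38 intervals with no scores, from reads aligned with Bowtie2 per the same notes. All peak bounds lie on a 50 bp grid, so starts are open by 1 bp.

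The 40 members and all gene lists were chosen with earlier results of these data known. Estimated counts were rounded and fitted per table in R 4.3.3 with edgeR 4.0.16 (filterByExpr, TMM, two-sided quasi-likelihood F test, with every group of a table in one fit), which tested 15224 and 13375 genes and all 40 members in each table. Values are CPM on TMM-scaled libraries. Differences are log2 ± the standard error from the F statistic, and p-values were adjusted over all genes tested. The fit does not depend on gene length, and levels were not compared between genes. DESeq2 1.42.0 was an alternative, as were other scalings and filters, single libraries left out, a replicate block and fits of 2 groups alone. Same-numbered HOXA9 libraries deviated together (r = 0.279, 0.300 and 0.550), while pairs in EYA1+HOXA9 (−0.003, −0.065 and 0.008) and the c-Kit table (−0.008, −0.051 and −0.076) did not.

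UMIs were summed per condition, and a gene was past 1.5-fold where its ratio of CPM was at least 1.5 or at most 0.667, its exact 95% interval left out 1 and the higher condition had at least 20 UMIs. No cells were removed and doublets were not called. Values in every library were given for the members with the smallest p among called members of a role and comparison and for those against most of their role. From other pathway lists at most 4 called genes were named, with the smallest p, and from the MYC network Myc, Mycn and Mycl and called genes. Others named with values, such as Fbl, Nop10, Polr1e, Utp20 and Noc3l, were chosen after their values were seen.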

Additional observations from a re-analysis of the deposited data

Results flagged for a closer look

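Myc was flagged because benzarone changed it differently in the lines by the interaction test, not because it is a member. It was at 306, 402 and 449 CPM in EYA1+HOXA9 cells in DMSO and 125, 162 and 204 in benzarone, and at 249.2, 193 and 276 in DMSO and 231, 191 and 263 in benzarone in HOXA9 cells. The change was −1.24 ± 0.21 (log2) in EYA1+HOXA9 and −0.07 ± 0.21 in HOXA9 cells, and all 3 benzarone libraries lay below all 3 DMSO libraries in the first line while the groups overlapped in the second. The interaction was −1.17 ± 0.29 (adjusted p = 0.0319) by edgeR's quasi-likelihood test. Over its 17 alternatives the value ran from −1.36 to −1.03 and the adjusted p from 0.00245 to 0.0921, with 7 past 0.05, each of them a fit without 1 library. Those were EYA1+HOXA9 benzarone replicate 1 or 2, EYA1+HOXA9 DMSO replicate 2 or 3, HOXA9 benzarone replicate 3, and HOXA9 DMSO replicate 1 or 2. In the same test, 0 of the 40 members were called.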

How the results depend on the processing

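No called member reversed its direction under any alternative. Of 79 calls of members in the bulk comparisons, 11 held under every alternative run for them, and 244 of 838 alternatives lost the call. Counts of called members were 0 for MOZ-TIF2 against fresh cells, 2 with DESeq2 and 1 with only the 2 groups. They were 23 for MOZ-TIF2 against differentiated cells and 15 with only the 2 groups. For EYA1+HOXA9 against HOXA9 they were 5 in DMSO and 3 with only the 2 groups, and 12 in benzarone and 19 with DESeq2. DESeq2 gave 1 in place of 0 for the interaction, and thinning gave 2 in place of 0 for single cells at day 3. Leaving out each library in turn gave 0 to 3 (MOZ-TIF2 against fresh), 6 to 33 (MOZ-TIF2 against differentiated), 2 to 26 (differentiated against fresh), 0 to 12 and 2 to 23 (EYA1+HOXA9 against HOXA9, first DMSO, then benzarone), 1 to 9 (benzarone in EYA1+HOXA9), 0 to 0 (benzarone in HOXA9) and 0 to 1 (interaction). With the replicate block the counts were 15 for MOZ-TIF2 against differentiated cells, 5 for EYA1+HOXA9 against HOXA9 in benzarone and 3 for benzarone in EYA1+HOXA9, where the libraries share only a number. The block gave 28 for differentiated against fresh cells, 4 for EYA1+HOXA9 against HOXA9 in DMSO and 0 for the rest. In HOXA9, same-numbered libraries deviated together, and a pairing was read from these values only. There the block called 0 with all groups and 0 with only the 2 groups (a fit chosen after seeing the data). Calls over all genes moved as well. In the c-Kit table, each fit without 1 library left 1 library in a group and called fewer of all genes than the main fit. In the lines, fits without 1 library called 1735 to 3486 of all genes for EYA1+HOXA9 against HOXA9 in DMSO, beside 3061. They called 2211 to 3596 in benzarone, beside 3382, and 2353 to 3923 for benzarone in EYA1+HOXA9, beside 3933. The causes of these changes were not tested. With 2 or 3 libraries per group the spread is poorly known, and single cells have 1 sample per condition. Peak counts ran from 14 to 27 members over other distances, overlaps and peak widths, beside 20. The share of all genes with a position ran from 14.5% to 44.5% over the same settings, beside 25.1%.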

Other observations

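Several genes of the MYC network other than Myc were called. Mxd4, a partner of MAX that opposes MYC, was lower in MOZ-TIF2 than in differentiated cells (−2.10 ± 0.22, adjusted p = 0.00164) and higher in differentiated than in fresh cells (1.84 ± 0.21, adjusted p = 0.0025), and it was higher in EYA1+HOXA9 than in HOXA9 cells in DMSO (0.96 ± 0.20, adjusted p = 0.00511). Mxd3, of the same family, was called lower in MOZ-TIF2 against fresh cells (−2.34 ± 0.57, adjusted p = 0.033). Mlx, a partner of other MAX-like proteins, was higher in MOZ-TIF2 than in differentiated cells (1.22 ± 0.18, adjusted p = 0.00584) and lower in EYA1+HOXA9 than in HOXA9 cells in benzarone (−0.80 ± 0.13, adjusted p = 0.000797). Mga, a MAX partner, was lower in benzarone in EYA1+HOXA9 cells (−0.56 ± 0.18, adjusted p = 0.034).

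Mycn was at 6.79 and 4.31 CPM in fresh and 20.8 and 19.98 in differentiated libraries and had 0 counts in both MOZ-TIF2 libraries and in all 12 line libraries, while single MOZ-TIF2 cells at day 5, in a separate table, held 3.57 CPM in DMSO and 3.83 in benzarone. Mycl was called in none of the 3 c-Kit table comparisons by edgeR (adjusted p of 0.0885 or more) and did not pass the filter on low counts in the lines. Heatr1 and Wdr74 were at 32.5 and 46.0 CPM in day 1 DMSO cells and at 5.30 and 111 CPM in day 5 DMSO cells, in tables made separately.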
